A study of Mus musculus with 24 samples.

Results

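The 12 arrays hybridised with cardiomyocyte RNA of 16 h after injection, out of 24 arrays in the series, were used to compare how the response to doxorubicin differed between mice with and without Top2b in cardiomyocytes. The quantity measured for every gene was the interaction of genotype and drug: the Top2b-/- response (doxorubicin minus PBS) minus the wild-type response, on the log2 scale. A positive value means that the signal under doxorubicin, relative to PBS, was higher in Top2b-/- than in wild type, and a negative value that it was lower. Genes past the test were then divided by whether the genotypes already differed in PBS. The 4 groups, each of 3 arrays, were wild type with PBS, wild type with doxorubicin, Top2b-/- with PBS and Top2b-/- with doxorubicin. Doxorubicin was injected intraperitoneally at 25 mg/kg. All mice were labelled as male, 6 weeks old and of 129SvEv/C57BL/6 background, and the cells were labelled as primary cardiomyocytes isolated live from the heart on a Langendorff apparatus, which perfuses the organ through the aorta. Top2b-/- stands for a deletion restricted to the heart. Which promoter drives the recombinase was not stated in the labels. Whether every array is a mouse of its own is not said in the labels, so p-values here cover the spread between samples, which may be technical.

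Type II topoisomerases cut both strands of DNA, pass another duplex through the break and rejoin the ends. The beta isoform, encoded by Top2b, is the form that non-dividing cells such as adult cardiomyocytes keep, whereas the alpha isoform, encoded by Top2a, belongs to proliferating cells. Doxorubicin, an anthracycline used against cancer and known for its toxicity to the heart, holds the enzyme on the cut DNA, and the resulting breaks activate p53. An interaction contrast asks for each transcript whether its change after the drug differs between the genotypes.

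Scale and arrays were as follows. Values are log2 signals with the 75th percentile of each array set to 0; that percentile was 172 to 282 intensity units over the 12 arrays. The genotype characteristic of 4 arrays contradicts their title (replicate 3 of both PBS groups and replicate 1 of both doxorubicin groups); titles were used here. Signal of Ddx3y, a gene of the Y chromosome, was well above background on the 3 wild-type PBS arrays, on wild-type doxorubicin replicate 1 and on Top2b-/- doxorubicin replicate 1, and the X-linked Xist on the other 7. Xist without Ddx3y signal on those 7 arrays is at odds with the male label. The Esr1 probe was at -5.43 to -5.95, not well above background, on the wild-type PBS arrays and wild-type doxorubicin replicate 1, at 0.60 and 1.05 on wild-type doxorubicin replicates 2 and 3, and at 5.04 to 6.45 on the Top2b-/- arrays. Slide 1 held all 6 wild-type arrays and Top2b-/- PBS replicates 1 and 2, and slide 2 held Top2b-/- PBS replicate 3 and all Top2b-/- doxorubicin arrays. Replicates of wild-type doxorubicin correlated least (Pearson r across genes 0.957 to 0.978, against 0.988 to 0.995 within the other groups). All 10 cardiomyocyte markers were measured. Their summed linear signal, in units of the 75th percentile, was 8820 to 9790, 7150 to 9220, 7550 to 7910 and 6930 to 8390 in wild-type PBS, wild-type doxorubicin, Top2b-/- PBS and Top2b-/- doxorubicin. That of 17 fibroblast markers, of which 1 interaction passed (Col3a1, higher), was 211 to 292, 135 to 174, 398 to 565 and 301 to 482. In such bulk RNA, fewer cells of a type and less RNA per cell cannot be told apart.

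The targeted gene was examined first. Top2b was at 4.03, 4.23 and 4.04 with PBS and 4.39, 4.38 and 4.15 with doxorubicin in wild type, and at 2.97, 2.86 and 3.03 with PBS and 2.54, 3.18 and 3.34 with doxorubicin in Top2b-/-. Every Top2b-/- array was below every wild-type array, with means of 2.99 ± 0.275 and 4.2 ± 0.161 (SD, n = 6 each; difference -1.22, 43% of wild type, two-sided exact permutation p = 0.00216). The sources used here do not say whether the probe lies in the deleted stretch. The interaction for Top2b was -0.15 ± 0.26 (SE; adjusted p = 0.762), with a genotype difference of -1.14 in PBS and -1.29 under doxorubicin. No interaction passed in limma among the 7 topoisomerase and Tdp genes measured (1 at an unadjusted p under 0.05). This includes Top1, the single-strand-cutting enzyme, at -0.44 ± 0.23 (SE; adjusted p = 0.228), and Tdp1 and Tdp2, which remove topoisomerase stubs from DNA ends, at 0.60 ± 0.42 (SE; adjusted p = 0.384) and -0.43 ± 0.18 (SE; adjusted p = 0.152). The probes of Top3b and of Tdp1 disagreed in sign.

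The response to doxorubicin differed between genotypes for 2144 of 18751 genes tested in limma (11.4%; adjusted p under 0.05). In 1156 (6.17%) the interaction was higher and in 988 (5.27%) it was lower. In 1435 the responses differed at least 2-fold. The same fit called 5206 genes for the wild-type response (27.8%) and 0 for the Top2b-/- response (0%), where 791 genes (4.22%) had an unadjusted p under 0.05. That fit pools the spread of the 4 groups. The median SD over genes was 0.33 in wild-type doxorubicin and 0.11 to 0.16 in the other groups. Both responses had a median SE of 0.19, so the 0 does not show that Top2b-/- cells did not respond. Of the genes that changed in wild type, 2101 also had a called interaction. Turned to the direction of the wild-type change, the 5206 genes had a median response of 0.911 in wild type and -0.00068 in Top2b-/-, and 2598 of them (49.9%) had the same sign in both genotypes. That share was 58.9% of the 2569 genes that rose in wild type and 41.2% of the 2637 that fell. Their turned Top2b-/- medians were 0.037 and -0.038.

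**Figure D1:**
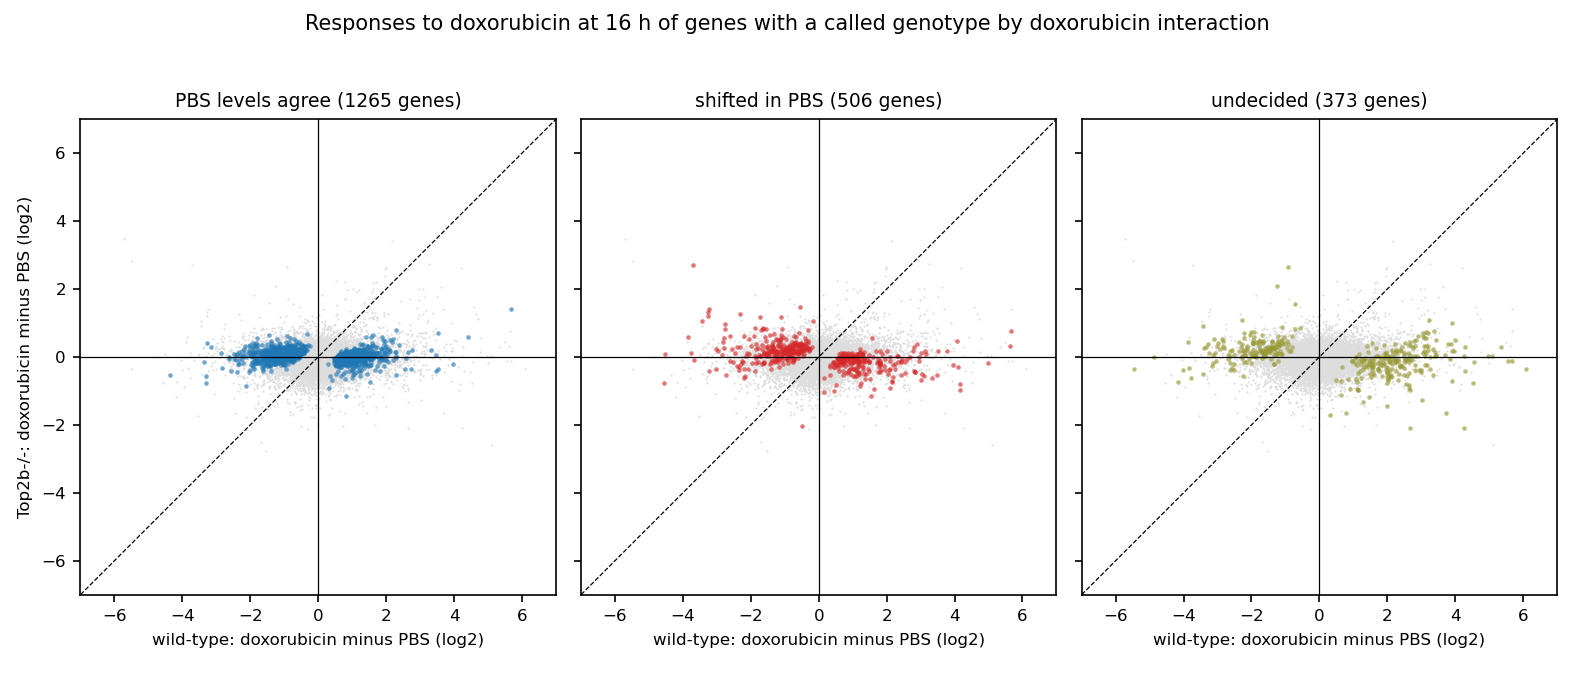
Response to doxorubicin in wild type (x axis, log2) against that in Top2b-/- (y axis, log2) at 16 h; grey points are all 18751 genes, coloured points the 2144 genes with a called interaction, 1 panel per PBS class, and the dashed line marks equal responses. In each panel the coloured points lie along the horizontal axis: they spread widely in wild type and stay close to 0 in Top2b-/-.

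The drug and the array slide are tied for Top2b-/- samples, and this bears on every count. In wild type the drug is partly tied to Ddx3y and Esr1 signal. All 3 PBS arrays had Ddx3y and no Esr1 signal, whereas doxorubicin replicates 2 and 3 had Esr1 and no Ddx3y signal. The wild-type response cannot be fully told apart from these differences. Genotype is tied to them as well. Esr1 signal was 5.04 or more on every Top2b-/- array and 1.05 or less on every wild-type array. In PBS every wild-type array and no Top2b-/- array had Ddx3y signal. Genotype cannot be told apart from Esr1 signal at 16 h, nor from Ddx3y signal in PBS. With slide as a fixed block the Top2b-/- response rests on the doxorubicin arrays and PBS replicate 3, the single Top2b-/- PBS array on their slide. Then 373 genes passed, 364 of them among the 2144, and all 2144 kept their sign. Leaving out 1 array at a time gave 1010 (without Top2b-/- PBS replicate 2) to 4746 genes (without wild-type doxorubicin replicate 3), and again all 2144 kept their sign. The count also moved by over 1.5 times without wild-type PBS replicate 2 (1266) or 3 (1356), without Top2b-/- PBS replicate 1 (1039) or 3 (1357), and without Top2b-/- doxorubicin replicate 2 (1102) or 3 (1048). Without both wild-type doxorubicin arrays that had Esr1 signal, a choice made after seeing the data, 6206 passed, of which 1985 were among the 2144. With Ddx3y signal as a covariate 3063 passed, 1616 of them shared. That covariate, present or absent, varied within the doxorubicin groups only, where replicate 1 of each genotype had the signal. Its effect was therefore estimated from those arrays alone. Replicate numbers were also tried as a block within Top2b-/-, after seeing that its 3 same-numbered pairs of PBS and doxorubicin arrays correlated (residual r of 0.12 to 0.29, against -0.27 to 0.074 for other numbers). Then 1098 genes passed, 1086 of them among the 2144, and the Top2b-/- response still gave 0 genes. This block is balanced over the treatments and leaves the interaction values as they were where no array is missing. Kept signs therefore show nothing in that fit. Of the genes whose interaction is given below, Cdkn1a, Mdm2, Serpina3n, Cd24a, Tgfb2, Fam46b, Tmem25, Cxcl10, Ctla2a, Eppk1, Ldb3, Txnrd1, Cox6a1, Cox15, Hk2, Slc2a4, Rad52, Xrcc3 and the interval on chr8 lost their call in that fit (adjusted p = 0.0506 to 0.09).

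Levels in PBS were the next question. A gene counted as shifted where the genotype difference in PBS had an adjusted p under 0.05, as agreeing where it had not and the 95% interval of that difference lay within 1 log2 unit of 0, and as undecided otherwise. Of the 2144 genes, 1265 (59%) agreed in PBS, 506 (23.6%) were shifted and 373 (17.4%) were undecided. Over all genes tested 66%, 12.5% and 21.5% fell into these classes. The interaction was called for 10.2% of all agreeing genes, 21.7% of shifted genes and 9.24% of undecided genes. The interaction and the PBS difference share the 6 PBS arrays, with opposite sign, so these shares describe the classes and test nothing. At the edges, Xaf1 missed the shifted class at an adjusted p of 0.05001, and Cdk5r1 was the agreeing gene whose interval reached farthest, to -1.0.

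By the way they were chosen, genes of the agreeing class were close in PBS and differed under doxorubicin. Their median absolute genotype difference was 0.20 in PBS and 0.952 under doxorubicin. Their median absolute response was 1.02 in wild type and 0.11 in Top2b-/-. In 1168 of the 1265 (92.3%; 20% over all genes) all 3 wild-type doxorubicin arrays lay beyond the other 9 arrays. In 247 (19.5%) all 3 wild-type PBS arrays lay beyond the rest, so agreeing genes can still differ in PBS within the margin. In 409 of the 506 shifted genes (80.8%; 11.3% over all genes) all 3 wild-type PBS arrays did so, and in 172 (34%) the wild-type doxorubicin arrays. The classes were drawn from contrasts of the same arrays, so these shares describe them and nothing is read from the background beside them.

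**Figure D2:**
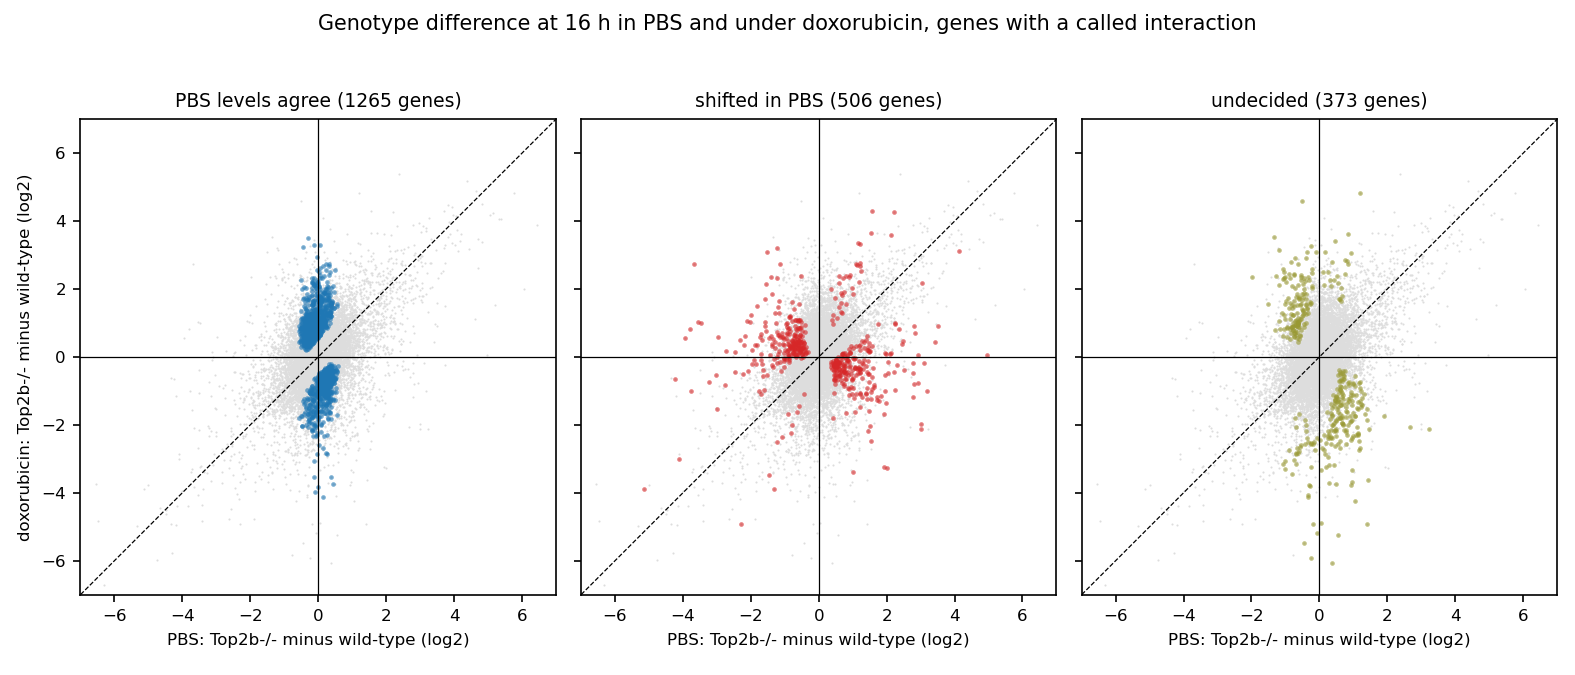
Genotype difference (Top2b-/- minus wild type, log2) in PBS on the x axis and under doxorubicin on the y axis for the genes with a called interaction, 1 panel per PBS class, over all genes in grey; the dashed line marks an equal difference in both treatments. Agreeing genes form a vertical band around 0 in PBS, and most shifted genes lie near 0 on the y axis or on the opposite side of 0 from their PBS difference.

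Among agreeing genes with a lower interaction, the largest differences included genes that p53 is known to induce. Trp53inp1, a p53-induced nuclear protein, was at 0.14, 0.67 and 0.36 with PBS and 4.36, 3.85 and 3.54 with doxorubicin in wild type, and at 0.07, 0.86 and 0.13 with PBS and 1.88, 1.09 and 0.21 with doxorubicin in Top2b-/-. The wild-type doxorubicin arrays were above all others, and 1 Top2b-/- doxorubicin array, at 1.88, was above the remaining 8. Its response was 3.53 in wild type and 0.70 in Top2b-/-, an interaction of -2.83 ± 0.55 (SE; adjusted p = 0.0113). Lrdd (now Pidd1), which encodes the p53-induced death domain protein, was at -2.18, -3.05 and -2.83 with PBS and -0.29, 0.39 and 0.13 with doxorubicin in wild type, and at -2.63, -2.30 and -2.35 with PBS and -2.47, -2.13 and -2.04 with doxorubicin in Top2b-/-. All arrays but the wild-type doxorubicin ones were at or below -2.04, with an interaction of -2.55 ± 0.34 (SE; adjusted p = 0.0022). Polk, the translesion DNA polymerase kappa, was at -1.27, -2.21 and -2.77 with PBS and 0.70, 0.70 and 0.57 with doxorubicin in wild type, and at -1.93, -2.24 and -1.34 with PBS and -1.97, -2.21 and -2.35 with doxorubicin in Top2b-/-. Its wild-type doxorubicin arrays were all positive and the other 9 all negative (interaction -3.08 ± 0.47 (SE; adjusted p = 0.00415)).

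The pro-apoptotic BCL2 family member Bax showed a smaller difference with little spread. Bax was at 2.58, 2.47 and 2.59 with PBS and 4.11, 4.16 and 4.06 with doxorubicin in wild type, and at 2.88, 2.84 and 2.88 with PBS and 2.87, 2.65 and 2.60 with doxorubicin in Top2b-/-, an interaction of -1.72 ± 0.14 (SE; adjusted p = 0.000349). The 2 PBS groups did not overlap, but their difference of 0.32 did not pass (adjusted p = 0.066). Pnmt, which converts noradrenaline to adrenaline, was at -1.52, -1.22 and -1.79 with PBS and 1.85, 1.80 and 2.18 with doxorubicin in wild type, and at -1.73, -1.30 and -1.89 with PBS and -1.48, -1.45 and -1.83 with doxorubicin in Top2b-/-. It was about 11-fold higher with doxorubicin than with PBS in wild type (log2 3.46) and differed by 0.05 in Top2b-/- (interaction -3.40 ± 0.29 (SE; adjusted p = 0.000349)). Larger interactions than that of Pnmt in this direction were measured for Gm10638 (-3.83 ± 0.41) and for a probe to a transcribed interval on the reverse strand (mm9, chr17:34018371-34019394; -3.89 ± 0.28). A further transcript and probe without a gene symbol, ENSMUST00000064032 and A_55_P1953377, were at -2.61 ± 0.33 and -2.92 ± 0.34. Once slide was a fixed block, Trp53inp1 no longer passed (adjusted p = 0.0991).

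**Figure D3:**
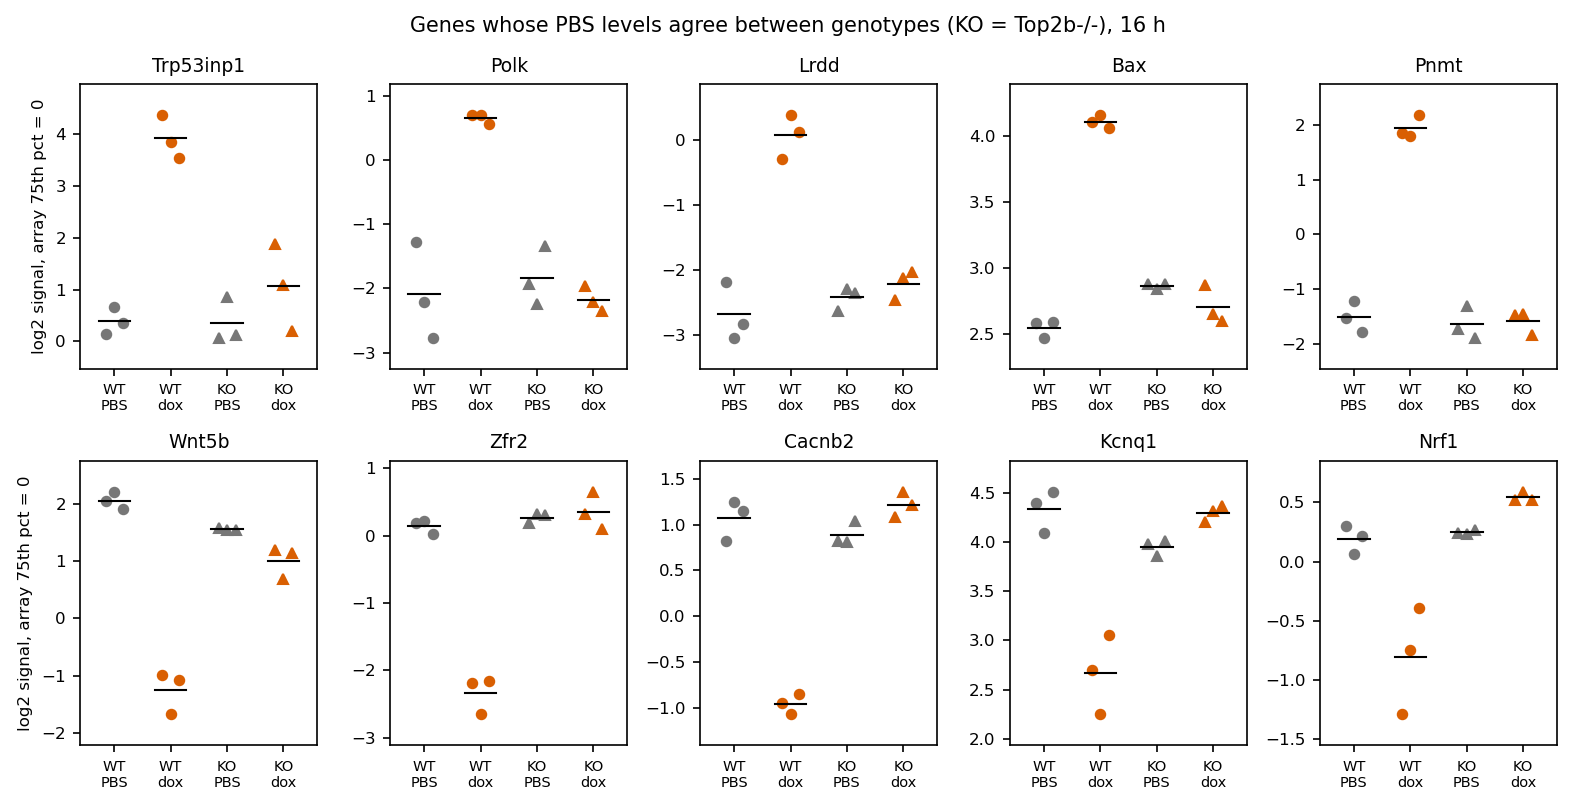
Log2 signal (y axis, 75th percentile of the array at 0) on each of the 12 arrays for 10 genes whose PBS levels agreed between genotypes; circles are wild type (WT), triangles Top2b-/- (KO), grey is PBS, orange is doxorubicin (dox), and bars are means of 3 arrays. In each panel the wild-type doxorubicin arrays stand above (Trp53inp1, Polk, Lrdd, Bax, Pnmt) or below (Wnt5b, Zfr2, Cacnb2, Kcnq1, Nrf1) the other 9.

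Of 41 measured p53 targets, 22 had a called interaction (53.7%, against 11.4% of all genes), 21 lower and 1 higher (Ak1, an adenylate kinase). The median interaction was -1.49, against 0.00038 over all genes. In wild type 26 rose and 1 fell; in Top2b-/- the median response was 0.0811. Of the 22, 11 agreed in PBS, 2 were shifted and 9 were undecided. The shifted pair was Phlda3, a repressor of Akt, and Plk2, a polo-like kinase. The cell cycle inhibitor Cdkn1a, chosen here after its values were seen, was at 1.81, 2.36 and 2.84 with PBS and 6.18, 5.63 and 4.48 with doxorubicin in wild type, and at 3.56, 2.70 and 3.07 with PBS and 3.62, 3.98 and 3.40 with doxorubicin in Top2b-/-. Its response was 3.09 in wild type and 0.55 in Top2b-/-, where it did not pass, and its interaction was -2.54 ± 0.59 (SE; adjusted p = 0.0219). Mdm2, the ubiquitin ligase that limits p53, differed less, at -0.87 ± 0.21 (SE; adjusted p = 0.0241), and was also chosen after its values were seen. Bbc3 (Puma), a BH3-only activator of cell death, was at -0.15, -0.21 and -0.22 with PBS and 2.96, 2.18 and 1.54 with doxorubicin in wild type, and at 0.49, 0.55 and 0.43 with PBS and 0.25, 0.09 and 0.34 with doxorubicin in Top2b-/-, with an interaction of -2.68 ± 0.38 (SE; adjusted p = 0.00293) and an undecided PBS class. A fixed slide block left 13 p53 targets past the threshold, all lower. The adjusted p was then 0.132 for Cdkn1a and 0.124 for Mdm2.

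The agreeing genes with the largest higher interactions were lowest in wild type with doxorubicin. Wnt5b, a secreted Wnt ligand, was at 2.04, 2.21 and 1.91 with PBS and -0.99, -1.67 and -1.08 with doxorubicin in wild type, and at 1.58, 1.54 and 1.55 with PBS and 1.20, 0.68 and 1.14 with doxorubicin in Top2b-/-, an interaction of 2.75 ± 0.27 (SE; adjusted p = 0.000679). Zfr2, a zinc finger RNA-binding protein, was at 0.18, 0.21 and 0.02 with PBS and -2.19, -2.65 and -2.16 with doxorubicin in wild type, and at 0.18, 0.32 and 0.30 with PBS and 0.32, 0.65 and 0.10 with doxorubicin in Top2b-/-, an interaction of 2.56 ± 0.24 (SE; adjusted p = 0.000471). In both genes the wild-type doxorubicin arrays were below 0 and the other 9 above it. Lrrc4b, a synaptic adhesion molecule, differed by 3.23 ± 0.48, the nuclear corepressor Hr (hairless) by 2.52 ± 0.47, the F-box protein Fbxl16 by 2.50 ± 0.32 and Eya3, a phosphatase and transcriptional coactivator, by 2.46 ± 0.43. A transcribed interval on the forward strand (mm9, chr2:113880070-113887230) differed by 2.49 ± 0.30. D930026N18Rik had the largest higher interaction among agreeing genes measured on all 12 arrays, 3.43 ± 0.39 (SE; adjusted p = 0.00131). RefSeq lists that name as a synonym of Cacna1c, the pore subunit of the L-type calcium channel, whereas the probe named Cacna1c on the array had 0.37 ± 0.28 (SE; adjusted p = 0.414), so the probes disagree. Under the fixed slide block, Hr and Eya3 no longer passed (adjusted p = 0.0577 and 0.0695).

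Genes of calcium handling and conduction were the pathway list with the most higher calls. Of 37 measured, 15 had a higher interaction and 0 a lower one (40.5%), with a median of 0.835. In wild type 23 fell and 0 rose, with a median of -0.71, and the Top2b-/- median was 0.0734. Of the 15, 10 were in the agreeing class. Cacnb2, an auxiliary subunit of the L-type calcium channel, was at 0.82, 1.25 and 1.15 with PBS and -0.95, -1.07 and -0.85 with doxorubicin in wild type, and at 0.82, 0.81 and 1.04 with PBS and 1.08, 1.36 and 1.22 with doxorubicin in Top2b-/-, an interaction of 2.36 ± 0.20 (SE; adjusted p = 0.000349). The potassium channel Kcnq1, which carries the slow delayed rectifier current, was at 4.40, 4.09 and 4.51 with PBS and 2.70, 2.25 and 3.06 with doxorubicin in wild type, and at 3.98, 3.86 and 4.01 with PBS and 4.2, 4.31 and 4.37 with doxorubicin in Top2b-/-, an interaction of 2.00 ± 0.27 (SE; adjusted p = 0.00219). The wild-type doxorubicin arrays of both were below all others. Phospholamban (Pln), which restrains the calcium pump of the sarcoplasmic reticulum, differed by 1.30 ± 0.22, and Kcnd2, a transient outward potassium channel, by 2.21 ± 0.33. Other members past the threshold included the gap junction protein Gja1, the calcium store proteins Casq2 and Trdn, the sodium-calcium exchanger Slc8a1 and the rapid delayed rectifier Kcnh2, named after their values were seen. The gene of the pump itself, Atp2a2, had 0.25 ± 0.16 (SE; adjusted p = 0.327). With slide as a fixed block 3 of the 37 passed (Cacnb2, Kcnq1 and Kcnd2) with a median of 0.945; Pln then had an adjusted p of 0.0653. With Ddx3y signal as a covariate 14 passed. Of 13 measured markers of smooth muscle and pericytes, 2 had a higher interaction and 0 a lower one (15.4%, near the 11.4% over all genes). Their median interaction was 0.922, and none passed with slide as a fixed block. Their summed signals were 222 to 244, 142 to 149, 254 to 273 and 245 to 292 in wild-type PBS, wild-type doxorubicin, Top2b-/- PBS and Top2b-/- doxorubicin, and a further marker, Lmod1, was below background. The part of such cells in the values of these and the contractile and cAMP genes was not tested.

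Contractile and second messenger genes showed fewer calls in the same direction. Of 38 sarcomere and Z-disc genes 6 (15.8%) had a higher interaction and none a lower one, among them Csrp3, the muscle LIM protein (1.30 ± 0.21), Ldb3 (1.10 ± 0.26) and titin (Ttn, 1.01 ± 0.19). The 4 Ttn probes did not all have the same sign. For Ttn the wild-type response of -0.34 was the smaller part of the difference and the Top2b-/- response was 0.67. Among 27 genes of cAMP and adrenergic signalling, 6 were higher and 1, Pnmt, was lower (25.9%). The cAMP phosphodiesterase Pde4a was at 4.87, 4.70 and 4.74 with PBS and 0.60, 0.96 and 2.70 with doxorubicin in wild type, and at 3.94, 3.92 and 4.29 with PBS and 4.18, 4.30 and 4.54 with doxorubicin in Top2b-/-. All 3 wild-type doxorubicin arrays were below the rest (interaction 3.64 ± 0.60 (SE; adjusted p = 0.0054)), and the phosphodiesterase Pde3a and the adenylyl cyclase Adcy5 differed by 1.70 ± 0.32 and 0.96 ± 0.16. With slide as a fixed block only Csrp3 of the sarcomere list and Pnmt of the cAMP list passed; Pde4a had an adjusted p of 0.0575. With 1 array left out there were 2 higher sarcomere genes (without wild-type PBS replicate 3, Top2b-/- PBS replicate 2 or Top2b-/- doxorubicin replicate 2 or 3) to 10 (without wild-type doxorubicin replicate 3).

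In the shifted class, 306 of 506 genes had a called genotype difference in PBS and none called under doxorubicin, which does not show equal levels. Of these, 158 were higher in Top2b-/- PBS (median 0.976) and had a genotype difference of -0.22 under doxorubicin, and 148 were lower (median -0.906) and differed by 0.23. All 158 had a lower and all 148 a higher interaction. The median wild-type response was 1.0 for the former and -0.90 for the latter, and the Top2b-/- response -0.12 and 0.25. The interaction is the difference under doxorubicin minus that in PBS, so the signs and sizes in these 306 genes follow from how they were chosen and are given as a description.

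Serpina3n, an acute-phase serine protease inhibitor, was among them. Serpina3n was at -3.03, -5.84 and -1.80 with PBS and 2.98, 1.53 and 1.81 with doxorubicin in wild type, and at 1.31, 1.93 and 0.97 with PBS and 2.84, 2.05 and 1.63 with doxorubicin in Top2b-/-. The wild-type PBS arrays were below the other 9, and the remaining groups overlapped. The lowest of them, replicate 2, was not well above background, so the PBS values that follow rest in part on a background level. Its genotype difference was 4.96 in PBS (adjusted p = 0.00484) and 0.06 under doxorubicin (adjusted p = 0.963), with an interaction of -4.89 ± 1.19 (SE; adjusted p = 0.0268). Ctgf (now Ccn2), a matricellular growth factor, was at 4.69, 4.58 and 4.41 with PBS and 5.66, 6.98 and 7.5 with doxorubicin in wild type, and at 7.75, 7.45 and 7.21 with PBS and 7.17, 7.05 and 6.11 with doxorubicin in Top2b-/-. Only its wild-type PBS arrays stood apart, with a difference of 2.91 in PBS and 0.06 under doxorubicin (interaction -2.85 ± 0.59 (SE; adjusted p = 0.0154)). Cd24a, a cell surface glycoprotein, was at -1.98, -2.32 and -2.59 with PBS and 2.18, 0.04 and -0.56 with doxorubicin in wild type, and at 0.81, 1.16 and 0.47 with PBS and 1.38, 0.11 and -0.34 with doxorubicin in Top2b-/-, with differences of 3.11 and -0.17 and an interaction of -3.28 ± 0.90 (SE; adjusted p = 0.0413). Tgfb2, a TGF-beta ligand, had the same shape, at 2.14 in PBS and 0.13 under doxorubicin (interaction -2.01 ± 0.50). So did Maff, a small Maf transcription factor (2.04 and -0.15; -2.19 ± 0.61), Zbtb16, a zinc finger transcription factor induced by glucocorticoids (1.96 and -0.54; -2.50 ± 0.52), and, chosen after its values were seen, Fam46b (3.51 and 0.91; -2.60 ± 0.70). In the other direction, Tmem25, a transmembrane protein, was at 3.09, 1.52 and 2.96 with PBS and -0.56, -0.51 and 0.97 with doxorubicin in wild type, and at 0.26, 0.31 and 0.54 with PBS and 0.30, 0.73 and 0.74 with doxorubicin in Top2b-/-. Here wild-type PBS was above the rest, and the genotype difference went from -2.15 in PBS to 0.62 under doxorubicin (interaction 2.78 ± 0.65 (SE; adjusted p = 0.0232)). Asap3, an Arf GTPase-activating protein, went from -2.03 to 1.02 (interaction 3.06 ± 0.66).

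None of these 9 genes passed with slide as a fixed block, where adjusted p was 0.12 to 0.252 over them. With Ddx3y signal as a covariate Ctgf and Asap3 did not pass (adjusted p = 0.0543 and 0.0644). All 3 wild-type PBS arrays had Ddx3y signal and none of the Top2b-/- PBS arrays had it. Esr1 signal separated the same arrays, at -5.48 to -5.95 in wild-type PBS and 5.73 to 6.45 in Top2b-/- PBS. Fibroblast markers differed in PBS too: 8 of 17 were higher and 0 lower in Top2b-/- PBS (6.77% and 5.68% over all genes). Their summed signal there was 398 to 565, against 211 to 292 in wild-type PBS. The part of Ddx3y signal, Esr1 signal or fibroblasts in these results was not tested.

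**Figure D4:**
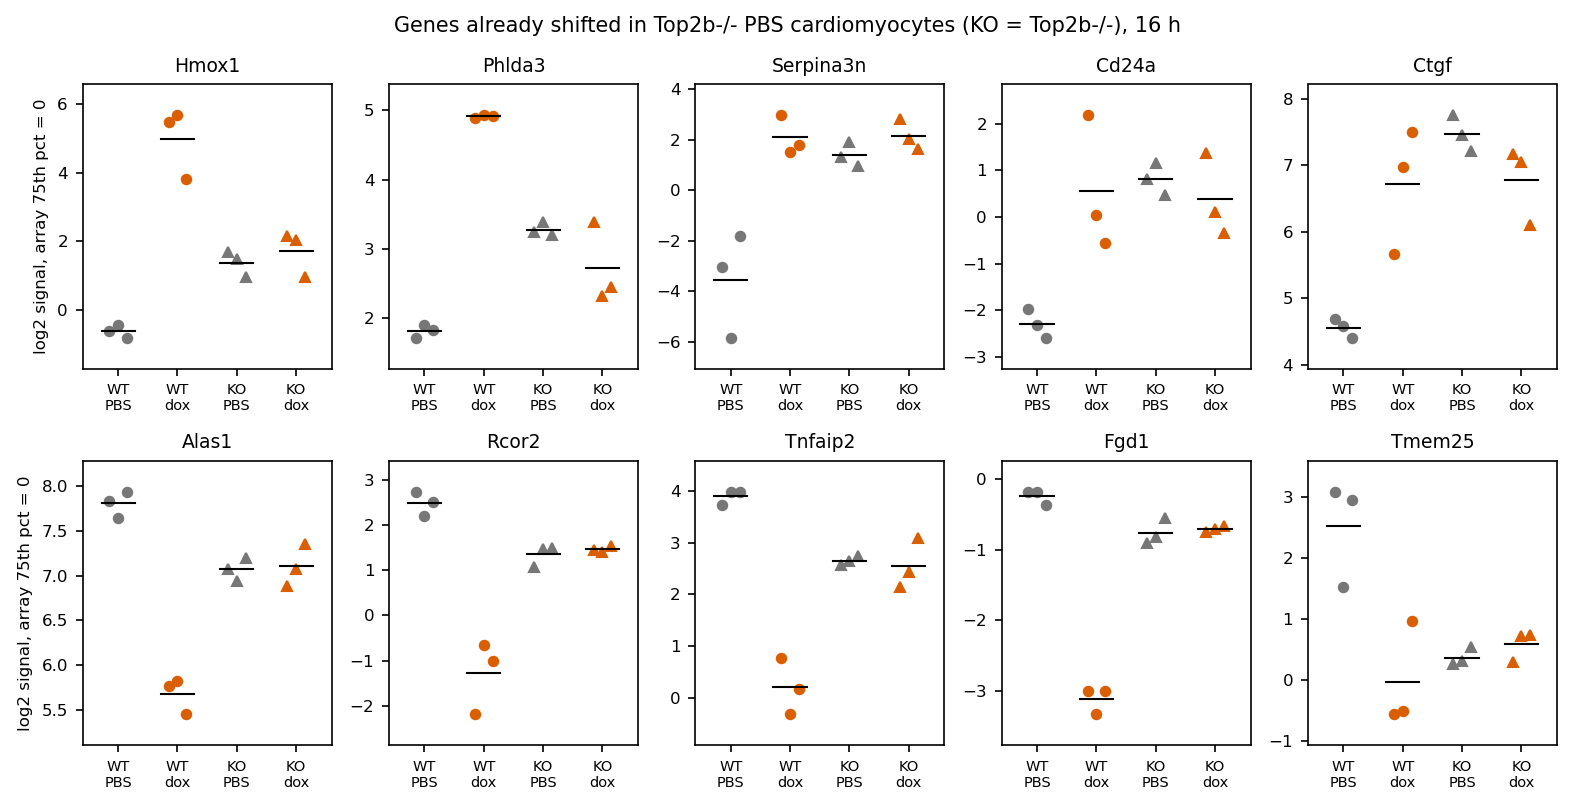
Log2 signal (y axis, 75th percentile of the array at 0) on each of the 12 arrays for 10 genes already shifted in Top2b-/- PBS; symbols as for the agreeing genes, bars are means of 3 arrays. For Serpina3n, Cd24a, Ctgf and Tmem25 only wild type with PBS stands apart, and for Hmox1, Phlda3, Alas1, Rcor2, Tnfaip2 and Fgd1 both Top2b-/- groups lie between wild type with PBS and wild type with doxorubicin.

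The other 200 shifted genes also differed under doxorubicin, as did 50.7% of all genes shifted in PBS, called or not for the interaction. Of those higher in Top2b-/- PBS, 73 had a lower and 34 a higher interaction, and of the 93 that were lower, 82 had a higher one. Hmox1, the haem-degrading enzyme heme oxygenase 1, had the largest interaction of the class among genes measured on every array. Hmox1 was at -0.62, -0.46 and -0.82 with PBS and 5.49, 5.68 and 3.82 with doxorubicin in wild type, and at 1.69, 1.48 and 0.95 with PBS and 2.16, 2.03 and 0.96 with doxorubicin in Top2b-/-. Both Top2b-/- groups lay between wild-type PBS and wild-type doxorubicin and overlapped each other. Its genotype difference was 2.01 in PBS and -3.28 under doxorubicin, with responses of 5.63 in wild type and 0.34 in Top2b-/- (interaction -5.29 ± 0.66 (SE; adjusted p = 0.00174)). Phlda3 was at 1.71, 1.90 and 1.83 with PBS and 4.89, 4.93 and 4.92 with doxorubicin in wild type, and at 3.24, 3.38 and 3.20 with PBS and 3.38, 2.32 and 2.45 with doxorubicin in Top2b-/-, an interaction of -3.65 ± 0.32 (SE; adjusted p = 0.000381). The kinetochore gene Spc25 and the antiproliferative gene Btg3 had the same order of groups, with interactions of -4.40 ± 0.39 and -3.08 ± 0.50.

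Genes that fell in wild type showed the mirror image. Gm14492 (now Prr33) was at 2.51, 2.50 and 2.46 with PBS and -1.72, -2.27 and -2.11 with doxorubicin in wild type, and at 0.85, 0.99 and 1.09 with PBS and 0.62, 0.92 and 1.66 with doxorubicin in Top2b-/-, an interaction of 4.61 ± 0.34 (SE; adjusted p = 0.000166). Rcor2, a corepressor that partners the neuronal repressor REST, was at 2.74, 2.21 and 2.52 with PBS and -2.19, -0.65 and -1.01 with doxorubicin in wild type, and at 1.08, 1.48 and 1.5 with PBS and 1.44, 1.41 and 1.54 with doxorubicin in Top2b-/-, an interaction of 3.88 ± 0.46 (SE; adjusted p = 0.00144). Tnfaip2 (3.57 ± 0.40) and the Cdc42 exchange factor Fgd1 (2.91 ± 0.19) followed. In all 4 genes the Top2b-/- PBS and Top2b-/- doxorubicin arrays were below wild-type PBS and above wild-type doxorubicin. All 8 genes of these 2 paragraphs from Hmox1 to Fgd1 passed with slide as a fixed block, with adjusted p of 0.00368 to 0.048.

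Iron and haem genes joined Hmox1 in number but not in direction. Of 37 measured, 6 had a higher interaction and 1, Hmox1, a lower one (18.9%). Alas1, the rate-limiting enzyme of haem synthesis, was at 7.84, 7.65 and 7.94 with PBS and 5.77, 5.82 and 5.45 with doxorubicin in wild type, and at 7.08, 6.94 and 7.20 with PBS and 6.89, 7.08 and 7.35 with doxorubicin in Top2b-/-. It was lowest in wild type with doxorubicin, shifted by -0.74 in PBS, and had an interaction of 2.16 ± 0.22 (SE; adjusted p = 0.000687). The transferrin receptor Tfrc, which takes up iron, was at 3.68, 3.16 and 3.78 with PBS and -0.36, -1.64 and -1.99 with doxorubicin in wild type, and at 2.10, 1.99 and 2.50 with PBS and 1.39, 2.05 and 3.12 with doxorubicin in Top2b-/-. Its PBS difference of -1.35 did not pass (adjusted p = 0.0904), which leaves it undecided, and its interaction was 4.87 ± 0.67 (SE; adjusted p = 0.0024). Mfsd7c (now Flvcr2), a transporter, differed by 2.63 ± 0.44, with an adjusted p of 0.0543 once slide was a fixed block. Hmox1 degrades haem, whereas the other members named here make it or bring in iron or solutes.

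Interferon-induced transcripts had the largest median wild-type response of any list, 1.97, and a Top2b-/- median of 0.312. Of 40 measured, 37 rose in wild type. The interaction was lower for 13 and higher for 0 (32.5%), with a median of -1.63; 4 of the 13 agreed in PBS, 0 were shifted and 9 were undecided. Many of these genes carry an interferon-stimulated response element near their start. The motif searched was GAAA, any 2 bases and GAAA again, on either strand, in the RefSeq promoter window (GRCm38.p6). It was present in that window for 3.99% of all genes, for 17 of the 31 measured interferon genes that had a window (54.8%), and for 3 of the 9 of these with a called interaction (33.3%). Those 3 are shown because they are the called genes that hold it; capitals mark it, in either orientation, and each stretch is written 5′ to 3′ on the gene's strand and ends upstream of the start.
Ifit3 (chr19:34583353-34583436, + strand): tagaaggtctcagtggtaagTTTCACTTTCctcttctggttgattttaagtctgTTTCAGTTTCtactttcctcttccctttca
Ifit1 (chr19:34640765-34640833, + strand): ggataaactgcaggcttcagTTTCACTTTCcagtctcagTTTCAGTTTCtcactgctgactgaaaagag
Cxcl10 (chr5:92349073-92349122, - strand): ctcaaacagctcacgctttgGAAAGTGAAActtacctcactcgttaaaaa

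Ifit3 and Ifit1 each hold 2 copies and Cxcl10 holds 1, and a match is a description of the letters only. The measured levels of these 3 genes differed in spread. Ifit3, an antiviral protein with tetratricopeptide repeats, was at -1.33, -2.10 and -1.91 with PBS and 1.37, 1.92 and 0.69 with doxorubicin in wild type, and at -1.35, -1.26 and -1.35 with PBS and -0.41, -2.14 and -1.31 with doxorubicin in Top2b-/-. The wild-type doxorubicin arrays were above the rest, and the Top2b-/- groups overlapped (interaction -3.08 ± 0.59 (SE; adjusted p = 0.0106)). Its relative Ifit1 was at -3.19, -4.38 and -3.61 with PBS and -0.85, 0.40 and -0.51 with doxorubicin in wild type, and at -1.88, -2.80 and -2.28 with PBS and -1.0, -3.36 and -2.15 with doxorubicin in Top2b-/-, an interaction of -3.26 ± 0.79 (SE; adjusted p = 0.0263). The chemokine Cxcl10 was at -4.01, -5.90 and -5.44 with PBS and 0.87, -1.67 and -3.38 with doxorubicin in wild type, and at -1.89, -1.96 and -1.80 with PBS and -2.06, -5.08 and -3.44 with doxorubicin in Top2b-/-, and not well above background on any wild-type PBS array. Wild type with doxorubicin was at least 4.34-fold above wild type with PBS (adjusted p = 0.0198), and Top2b-/- with PBS at least 3.09-fold (adjusted p = 0.0615), and the interaction passed (adjusted p = 0.0371). Tap1, the peptide transporter of antigen presentation, had an interaction of -3.51 ± 0.53 (SE; adjusted p = 0.00387), with Oasl1 at -3.02 ± 0.58 and Ifit2 at -2.48 ± 0.40. Ifit1 and Tap1 were each well above background on only 1 of 3 wild-type PBS arrays. With slide as a fixed block Tap1 alone of the 40 passed (adjusted p = 0.0382), against 0.0813 for Ifit3 and 0.137 for Ifit1. Without the wild-type doxorubicin arrays with Esr1 signal 25 of the 40 were lower, although Ifit1 did not pass (adjusted p = 0.063). Single arrays moved the count of 13 as well. It was 6 without wild-type PBS replicate 2 or 3, wild-type doxorubicin replicate 2, Top2b-/- PBS replicate 1 or 2 or Top2b-/- doxorubicin replicate 3. It was 7 without Top2b-/- PBS replicate 3 or Top2b-/- doxorubicin replicate 2, and 31 without wild-type doxorubicin replicate 3. With Ddx3y signal as a covariate it was 19, and with the replicate block within Top2b-/- it was 7.

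Of 27 genes of the IL6, STAT3 and acute-phase list, 4 had a lower and 1 a higher interaction (18.5%), the latter Lrg1. Il6ra, the interleukin 6 receptor subunit, was at -1.20, -1.58 and -1.75 with PBS and 1.57, 1.83 and 1.84 with doxorubicin in wild type, and at -0.88, -0.83 and -1.53 with PBS and -0.79, -1.56 and -1.93 with doxorubicin in Top2b-/-. It stood above the other 9 arrays in wild type with doxorubicin, with an interaction of -3.60 ± 0.41 (SE; adjusted p = 0.00131). Ctla2a differed by -2.60 ± 0.61. The acute-phase protein Saa3 was not well above background on any PBS array and was so on 1 of 3 Top2b-/- doxorubicin arrays. Its rise in wild type was at least 36.6-fold (adjusted p = 0.00077), and its interaction passed (adjusted p = 0.0458). The slide block left Il6ra alone past the threshold. Leaving out 1 array gave 1 lower gene (without Top2b-/- PBS replicate 1 or 2 or Top2b-/- doxorubicin replicate 2 or 3) to 12 (without wild-type doxorubicin replicate 3).

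Markers of other cell types were set beside these 2 lists. Of 20 endothelial markers, all measured, 1 had a lower interaction. Under doxorubicin 11 were lower and 0 higher in Top2b-/- than in wild type, against 14.4% and 16.9% over all genes. Their summed signals were 168 to 270, 259 to 435, 132 to 175 and 132 to 140 in wild-type PBS, wild-type doxorubicin, Top2b-/- PBS and Top2b-/- doxorubicin. Of 17 macrophage markers 3 had a lower interaction (Lyve1, Fcgr3 and Mrc1), with summed signals of 92.3 to 104, 69.6 to 98.4, 95.3 to 118 and 70.8 to 90.2 in the same order. Their median interaction was -1.02. The macrophage markers Fcgr1, Cd163 and Ccr2 were below background in every group. Of 5 neutrophil markers measured, 1 had a lower interaction (Ly6g), with sums of 84.2 to 87.4, 69.6 to 105, 69.3 to 80.2 and 71.9 to 82.8, and Cxcr2, Mpo, Camp, Ngp, Retnlg, Ltf, Mmp8 and Mmp9 were below background in every group. Of the 5, 3 rose and 0 fell in wild type (13.7% and 14.1% over all genes). Under doxorubicin 3 were lower and 0 higher in Top2b-/-. Their median response was 1.85 in wild type and 0.048 in Top2b-/-, with a median interaction of -1.59, against -1.63 for the interferon list. The part of all these cells in the interferon and acute-phase values was not tested.

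For 81 genes with a called interaction, signal under doxorubicin was well above background in all 3 arrays of 1 genotype and in none of the other, so that only a bound on the genotype difference can be given. In 46 the bright genotype was wild type and in 35 Top2b-/-. Gtse1, a microtubule-associated protein that restrains p53, was at least 25.9-fold higher in wild type than in Top2b-/- under doxorubicin (adjusted p = 6.1e-05), with measured means of 0.68 and -5.38. Pmaip1 (Noxa), a BH3-only cell death protein, was at least 14.2-fold higher (adjusted p = 0.000566). Both were at background in both PBS groups. The cytoskeleton-associated protein Ckap2 was at least 4.29-fold higher. A transcribed interval on the forward strand (mm9, chr10:117021051-117038683) was at least 7.47-fold and LOC100504219 at least 6.21-fold higher. In the other direction, the lysophosphatidic acid receptor Lpar3 was at least 5.10-fold and the cytolinker Eppk1 at least 5.64-fold higher in Top2b-/-. Fam19a3 (now Tafa3) was at least 3.11-fold and an interval at mm9 chr8:124697835-124699013 at least 2.73-fold higher. When slide was a fixed block, the interactions of Pmaip1, LOC100504219, Eppk1 and the chr8 interval did not pass (adjusted p = 0.103, 0.127, 0.176 and 0.201).

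**Figure D5:**
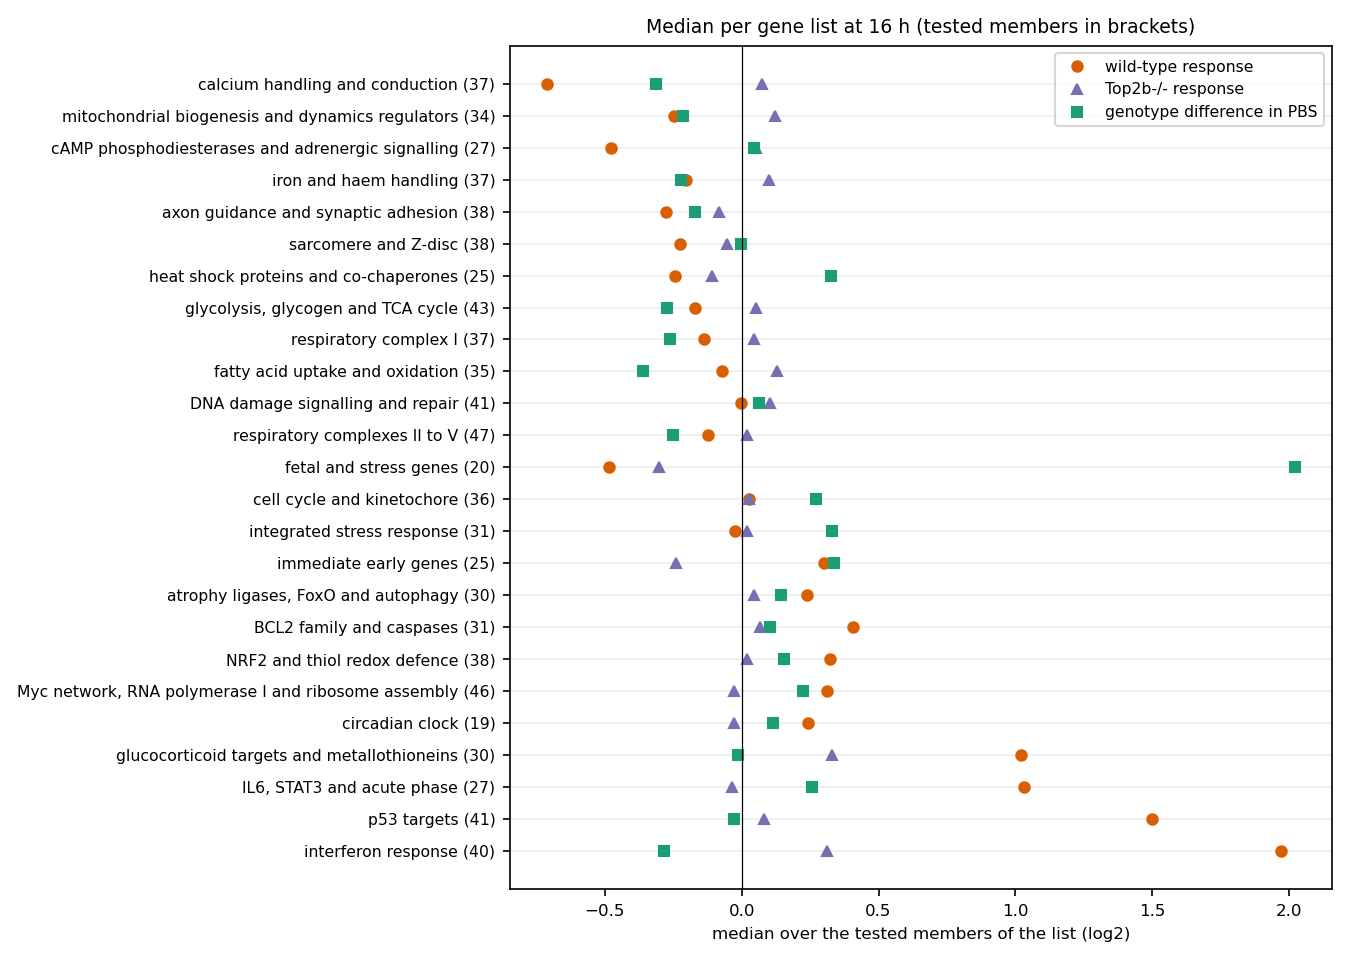
Median over the measured members of each pathway list (y axis, number of members in brackets) of the wild-type response (circles), the Top2b-/- response (triangles) and the genotype difference in PBS (squares), in log2 units on the x axis. Wild-type medians run from -0.71 for calcium handling to 1.97 for interferon genes, whereas every Top2b-/- median lies between -0.301 and 0.329.

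Several further lists had a share of called genes above the 11.4% over all genes. Clock genes had 5 lower interactions of 19 (26.3%): the repressors Per2 (adjusted p = 0.00173) and Cry2 (-1.31 ± 0.20), the PAR bZIP factor Tef (-1.44 ± 0.24), the nuclear receptor Rora (-0.85 ± 0.21) and Bhlhe41. Per2 was not well above background in wild-type PBS and rose at least 2.23-fold in wild type (adjusted p = 5.8e-05). It was shifted, whereas Cry2, Tef and Rora agreed in PBS. Cry2 was at 3.01, 2.89 and 3.05 with PBS and 4.08, 4.42 and 4.29 with doxorubicin in wild type, and at 2.92, 3.19 and 2.98 with PBS and 3.23, 2.98 and 2.80 with doxorubicin in Top2b-/-, with the wild-type doxorubicin arrays above all others. Glucocorticoid targets had 6 lower and 1 higher of 30 (23.3%); Apod, a lipocalin, was at -3.37 ± 0.44. The 1 higher was Ddit4, an inhibitor of mTORC1, at 6.90, 6.81 and 6.68 with PBS and 6.41, 6.69 and 6.75 with doxorubicin in wild type, and at 5.91, 5.98 and 6.20 with PBS and 7.08, 7.43 and 6.75 with doxorubicin in Top2b-/-. Ddit4 had responses of -0.18 in wild type and 1.06 in Top2b-/-, neither past the threshold (adjusted p = 0.475 and 0.251). Its interaction of 1.24 ± 0.25 (SE; adjusted p = 0.0129) did not pass with slide as a fixed block (adjusted p = 0.119) or with all 24 arrays in the fit. That block left Cry2 and Per2 of the clock list and Apod and Pnmt of the glucocorticoid list past the threshold. Leaving out 1 array gave 3 (without any wild-type PBS array, Top2b-/- PBS replicate 1 or 2 or Top2b-/- doxorubicin replicate 3) to 6 lower clock genes, and 4 to 11 lower glucocorticoid targets (the most without wild-type doxorubicin replicate 3).

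Growth and cell cycle genes were mixed. In the list of the Myc network and ribosome assembly, 8 were lower and 2 higher of 46 (21.7%). The nucleolar proteins Gnl3 (-1.22 ± 0.19), Heatr1 (-1.01 ± 0.16) and Gar1 (-0.83 ± 0.16) rose in wild type and had lower interactions, and Rrn3, which recruits RNA polymerase I to ribosomal DNA, fell and had a higher one (1.21 ± 0.19). Myc itself, chosen after its values were seen, was at -2.95, -1.41 and -2.88 with PBS and 1.33, -0.12 and -0.51 with doxorubicin in wild type, and at -0.32, -0.99 and -1.57 with PBS and -1.36, -1.94 and -2.35 with doxorubicin in Top2b-/-, an interaction of -3.57 ± 0.78 (SE; adjusted p = 0.0186) that did not pass with slide as a fixed block (adjusted p = 0.15). In the cell cycle list 7 were lower and 1, Pmf1, higher of 36 (22.2%). The replicative helicase subunits Mcm7 (-1.44 ± 0.19) and Mcm4 (-1.02 ± 0.16) agreed in PBS. In the BCL2 family and caspase list 5 were lower and 3 higher of 31 (25.8%). The 5 were the activators of cell death Pmaip1, Bbc3 and Bax, the inflammatory caspase Casp4 and the survival protein Bcl2l1, and the 3 included Casp6 (1.07 ± 0.18) and Bik. The slide block left Rrn3, Gnl3 and Heatr1 of the Myc list, Mcm7 and Spc25 of the cell cycle list and Bax and Bbc3 of the BCL2 list past the threshold. With 1 array left out there were 4 (without Top2b-/- doxorubicin replicate 3) to 14 lower genes of the Myc list and 3 (without Top2b-/- PBS replicate 2) to 8 lower genes of the BCL2 list, both highest without wild-type doxorubicin replicate 3.

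Redox and mitochondrial lists differed from each other. Of 38 NRF2 and thiol genes 6 had a lower interaction and 0 a higher one (15.8%), including the glutathione synthesis enzymes Gclm (-1.77 ± 0.29) and Gss (-1.17 ± 0.23), thioredoxin reductase Txnrd1 (-1.44 ± 0.38) and the small Maf protein Mafg (-1.67 ± 0.36). Of 34 regulators of mitochondrial biogenesis and dynamics 7 were higher and 1 lower (23.5%). Nrf1, a transcription factor for respiratory genes, was at 0.30, 0.06 and 0.22 with PBS and -1.29, -0.75 and -0.39 with doxorubicin in wild type, and at 0.24, 0.23 and 0.27 with PBS and 0.52, 0.59 and 0.52 with doxorubicin in Top2b-/-, with the wild-type doxorubicin arrays lowest (interaction 1.30 ± 0.27 (SE; adjusted p = 0.0141)). The fusion protein Mfn1 differed by 1.35 ± 0.16 and the deacetylase Sirt1, the lower one, by -1.04 ± 0.21. Few structural genes of the respiratory chain passed. Of 37 complex I genes 0 passed in limma (5 at an unadjusted p under 0.05), with a median of 0.176, and the smallest adjusted p was 0.0662 for Ndufc2 at 0.60 ± 0.19. Of 47 genes of complexes II to V 2 passed (4.26%), Cox6a1 (1.25 ± 0.27) and Cox15 (0.81 ± 0.22), and of 35 fatty acid genes 1 (2.86%), the lipid droplet protein Plin5 (2.12 ± 0.47). Of 43 genes of glycolysis, glycogen and the TCA cycle 5 were higher and 0 lower (11.6%), including glycogen synthase Gys1 (1.12 ± 0.19), hexokinase Hk2 (0.94 ± 0.21) and the glucose transporter Slc2a4 (0.92 ± 0.26). Of the calls in the lists named here, those of Gclm and Mfn1 passed with slide as a fixed block and no other did. Leaving out 1 array gave 2 (without Top2b-/- doxorubicin replicate 3) to 13 lower NRF2 and thiol genes (without wild-type doxorubicin replicate 1). It gave 6 to 13 higher mitochondrial regulators, the most without wild-type doxorubicin replicate 3. For glycolysis, glycogen and the TCA cycle it gave 1 (without Top2b-/- PBS replicate 2 or Top2b-/- doxorubicin replicate 3) to 10 higher genes (without wild-type doxorubicin replicate 1).

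Fetal and stress genes of the heart differed between genotypes in PBS more than they responded differently. Of 20 measured, 9 were higher in Top2b-/- PBS and 0 lower (background 6.77% and 5.68%), with a median of 2.02. The interaction was called for 3 (15%): Ctgf and Tgfb2, lower, and Fhl2, a LIM-domain protein, higher (1.62 ± 0.21). Atrial natriuretic peptide Nppa had an interaction of 0.29 ± 0.53 (SE; adjusted p = 0.772) beside a PBS difference of 2.44. The fetal myosin heavy chain Myh7 had -1.25 ± 1.02 (SE; adjusted p = 0.465) beside one of 4.72. Summed signal of 9 atrial markers, Nppa included, was 248 to 745 and 262 to 474 in the wild-type groups and 1580 to 1820 and 1210 to 2080 in the Top2b-/- groups, and its part in these values was not tested. Lists with shares near or below the background were DNA repair (3 of 41; Parp2 0.88 ± 0.16 and Xrcc3 1.25 ± 0.36 higher, Rad52 -1.03 ± 0.24 lower), the integrated stress response (3 of 31), heat shock proteins (3 of 25) and atrophy and autophagy genes (2 of 30; Gabarapl1 -1.67 ± 0.30 and Fbxo30 -1.12 ± 0.23). Of 25 immediate early genes 4 passed (Ctgf, Maff and Klf6 lower, Srf higher). Axon guidance and adhesion genes had 8 higher and 1 lower (Lrrc4) of 38 (23.7%), among them the semaphorin receptor Nrp1 (2.30 ± 0.29), the semaphorin Sema3b (1.25 ± 0.16), Rcor2, Lrrc4b and, chosen after its values were seen, Lingo3, at 2.63, 2.00 and 2.06 with PBS and -2.38, -1.97 and -0.61 with doxorubicin in wild type, and at 0.90, 1.09 and 1.16 with PBS and 0.70, 1.57 and 2.23 with doxorubicin in Top2b-/- (interaction 4.33 ± 0.65 (SE; adjusted p = 0.0037)). Of the calls in these lists, the slide block left past the threshold Fhl2 and the 6 axon guidance and adhesion genes Lingo3, Lrrc4b, Nrp1, Plxnd1, Rcor2 and Sema3b.

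The same contrast was taken on the 12 arrays of 72 h. They share no array with those of 16 h and lie on other slides, so time and slide cannot be told apart. Esr1 signal of wild type at 72 h was 8.41, 8.58 and -6.18 with PBS and 6.62, -2.06 and -4.37 with doxorubicin. At 16 h it was not well above background on any wild-type PBS array, and its part in the comparison of times was not tested. No gene of 19670 passed in limma at 72 h (0%), where 1389 (7.06%) had an unadjusted p under 0.05. Of 2052 genes called at 16 h and measured at 72 h, 1624 (79.1%) had the same sign at both times, against 61.3% of genes not called at 16 h. Turned to the 16 h direction, their median at 72 h was 0.33, against 1.20 at 16 h. The share was 79.6% for the agreeing class and 78.6% for the shifted class.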

How the data were processed

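Cardiomyocyte RNA was measured on 12 arrays of 16 h, grouped by sample title. Each array came with a deposited Feature Extraction (10.7.3.1) text file; per the file headers it gives spot intensity as raw, as local background and as processed, the last being background-subtracted and linear, with no scaling between arrays. The authors' value table, also deposited, holds a ratio of processed signal to the array median, as a comparison of both showed, and was only a check. Probe positions are mm9 per the file headers.

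Processed intensity was put on the log2 scale relative to the array's 75th percentile. A probe was kept if all 3 arrays of some group exceeded background clearly by the scanner's flag. Outlier spots were dropped, repeat spots averaged, and a gene took its brightest probe (18751 genes). All 4 groups were fitted without a block in R 4.3.3 with limma 3.58.1 (8 residual degrees of freedom), Benjamini-Hochberg adjustment over all genes and a threshold of 0.05. Bounds ("at least N-fold") divide the brighter group's level by a ceiling for the dimmer one, whose arrays each count at their own signal or at the dimmest probe that passed the background flag, whichever was higher. Gene names are those of the array; RefSeq supplied current names and promoters.

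Genes named are the largest interactions per class and direction among genes measured on all 12 arrays (8 agreeing, 6 shifted), at most 4 genes with bounds in each direction, the topoisomerases, and up to 4 members per list with the smallest p; others are said to be chosen after their values were seen, as are members named only because a list had few calls. Some genes that fall under this rule are not reported here. Members and lists were chosen with earlier results of these data known. Of 1097 list entries 979 were measured. Same-numbered replicates of different groups had residual correlations of -0.12 to 0.29, with 6 of 18 above 0.1, so numbers were not taken to pair samples over the 4 groups. The 3 pairs of Top2b-/- PBS and doxorubicin arrays were all above 0.1, and a block within Top2b-/- was added after seeing this. On simulated data of 18751 genes with this interaction design, 35% of interactions of 1 log2 unit and 71% of those of 2 were recovered, and 7.83% of calls were false. The simulated noise was independent and equal in all groups, without a slide effect, and fewer genes changed than were called here. The real wild-type doxorubicin arrays spread more than the others, so these rates need not hold for the real arrays. The number of arrays limits the precision. Alternatives tried are given in the closing section.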

Additional observations from a re-analysis of the deposited data

Results flagged for a closer look

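The response to doxorubicin at 16 h differed between the genotypes by a test of the difference itself: 2144 of 18751 genes passed the interaction contrast in limma (adjusted p under 0.05), 1156 higher and 988 lower. The same fit called 5206 genes for the wild-type response and 0 for the Top2b-/- response. It pools the spread of all groups, which was largest in wild-type doxorubicin, so the 0 does not show an absent Top2b-/- response.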

How the results depend on the processing

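The count of 2144 interaction genes, and those of 1265 agreeing and 506 shifted genes, stayed within 1.5 times under normexp background correction, quantile normalization, centring on the median, a filter on all 12 arrays, the mean over probes and all 24 arrays in the fit. Slide as a random block gave 2730, 1612 and 633. With only 2 slides and a negative estimated correlation within a slide (-0.131), that setting cannot show whether the counts depend on slide. Centring on the median moved the median interaction of all genes by 0.12, and 63.9% of calls were then higher, against 53.9%. Without a filter on dim probes the counts were 972, 547 and 149. With slide as a fixed block they were 373, 222 and 69. With the genotype characteristic in place of the title they were 0, 0 and 0 (514 genes at an unadjusted p under 0.05 in limma), the Top2b difference was -0.264, and the Eppk1 difference of responses turned to -0.048. Without the wild-type doxorubicin arrays with Esr1 signal, chosen after seeing the data, they were 6206, 3712 and 2115, and the lone array was assumed to vary like the others. With Ddx3y signal as a covariate 855 genes were shifted. Ddx3y signal and genotype coincide in PBS, so the effect removed there was estimated from the doxorubicin arrays, and this count cannot separate the 2. A margin of 1.5-fold left 648 agreeing genes, and an unadjusted p for the PBS shift gave 927 shifted genes. Leaving out 1 array at a time gave 1010 to 4746 interaction genes, 597 to 3005 agreeing and 133 to 1165 shifted, with the lowest counts without a Top2b-/- PBS array and the highest without wild-type doxorubicin replicate 3; the Top2b difference was -1.29 to -1.13. With a replicate block over all groups the counts were 1998, 1202 and 422, and Cox15, Slc2a4, Xrcc3, Fam46b and the chr8 interval lost their calls (adjusted p = 0.0533 to 0.0671). With a replicate block within Top2b-/- only, added after seeing the data, they were 1098, 620 and 227. Why these counts moved was not tested. All 2144 genes kept their sign under these settings, with exceptions. The number was 2143 without the filter, 2134 with the mean over probes and 2072 with the genotype characteristic. The filter on all 12 arrays measured 1815 of the 2144. Both replicate blocks are balanced over the groups and leave the interaction values as they were where no array is missing, so kept signs show nothing there. Genes not well above background have only bounds.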
